A study of Mus musculus with 8 samples.

Results

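The 37 gene models of the S100 and small proline-rich families were followed in the mouse prostate, from wild type (WT) tissue through prostatic intraepithelial neoplasia (PIN) to prostatic adenocarcinoma (PCa). They were chosen by name from the 27036 gene models of the deposited table, and comprised 14 S100 genes, 16 Sprr genes, and 7 models of the cornified envelope genes Lor, Ivl and Flg, of which Flg accounted for 5. RNA was taken from 3 WT prostates, 3 PIN tissues and 2 PCa tissues. The WT animals were R26 mTmG/+:Osr1 Cre/+ mice, matched for sex and age, which carried the membrane reporter and the Cre allele but no transgenic receptor. The PIN and PCa animals, of genotype R26 mTmG/hAR:Osr1 Cre/+, carried in addition a floxed human androgen receptor transgene (hARtg), switched on in Osr1-lineage cells by Cre under the Osr1 promoter. Lesions were selected under the microscope for atypical or tumor cells, and the ages of the animals behind these libraries are not given in the sources used here.

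S100 proteins are small calcium-binding proteins with EF-hand motifs, most of which act as dimers that change shape on binding calcium and then bind partners such as annexins. S100A8 and S100A9 form calprotectin, which is abundant in neutrophils and monocytes and is also made by stressed epithelia. Small proline-rich proteins, involucrin (Ivl), loricrin (Lor) and filaggrin (Flg) are structural proteins of stratified epithelia, where transglutaminases crosslink many of them into the cornified envelope. Most of these genes lie together in the epidermal differentiation complex, a region better known from skin than from the glandular epithelium of the prostate.

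Total counts were 21751803 to 29730420 per library, so that 3 counts corresponded to 0.0965 to 0.148 CPM, the count scaled to a library size adjusted by the trimmed mean of M-values. The PCa tumors differed from each other more than the animals of the other groups, with a Spearman correlation across genes of 0.839 against at least 0.923 in WT and 0.964 in PIN. The prostate secretory genes Tgm4 and Pbsn were abundant in WT and PIN, with at least 34902 CPM of Tgm4, but reached only 56.0 and 373 CPM of Tgm4 in PCa 1 and PCa 2. Seminal vesicle transcripts summed to 15916 CPM in WT 1, 4226 CPM in PCa 1 and 1263 CPM in PCa 2, against 0.634 and 0.769 CPM in WT 2 and WT 3 and 56.3 to 96.4 CPM in PIN, and their part in the members' values was not tested. The values of S100a8 and Sprr2f, for which WT 1 held every WT count, are also given without that library. The library numbers in the labels form separate runs for WT 1, for WT 2 and WT 3, and for all PIN and PCa libraries, and a difference between these runs cannot be told apart from the condition in comparisons with WT.

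Of the 37 members, 13 exceeded 1 CPM in 2 or more libraries and were tested, comprising 9 S100 genes, 3 Sprr genes and Ivl. Another 10 members had no count in any library, namely the 5 Flg models, Sprr2i, Sprr2j-ps, Sprr2k, Sprr3 and Sprr4. The number of members with at least 1 count was 13 to 19 in WT and PIN libraries and 25 and 24 in the PCa libraries. In PCa against WT, 3 of the 13 tested members were called, S100a8, S100a14 and S100a6, and all of them were higher, where a call needed a fold change above 2 and an adjusted p under 0.05 (background: 8.54% of all 14034 tested genes called, 4.35% called higher and 4.18% lower). In PCa against PIN, 2 members were called, S100a8 and S100a6, again higher (background: 5.72% of all tested genes called, 2.55% called higher and 3.17% lower). Without regard to a test, both PCa libraries lay above every WT library for 9 of the 13 (background: 17.7% of all tested genes) and above every PIN library for 8 (background: 21.1%), and below every PIN library for none (background: 23.2%). Of the 13, S100a8, Sprr2a3, Sprr2f and Ivl passed the filter through the PCa libraries alone and had to be high there. Among the other 9 members, 2 were called in PCa against WT (background: 8.19% of the 13435 genes that pass in the WT and PIN libraries alone), and 1 in PCa against PIN (background: 5.55%). Of these 9, both PCa libraries lay above every WT library for 5 (background: 16.5%) and above every PIN library for 4 (background: 20.1%). Both PCa comparisons share the PCa libraries, so their values for a member are not independent.

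**Figure D1:**
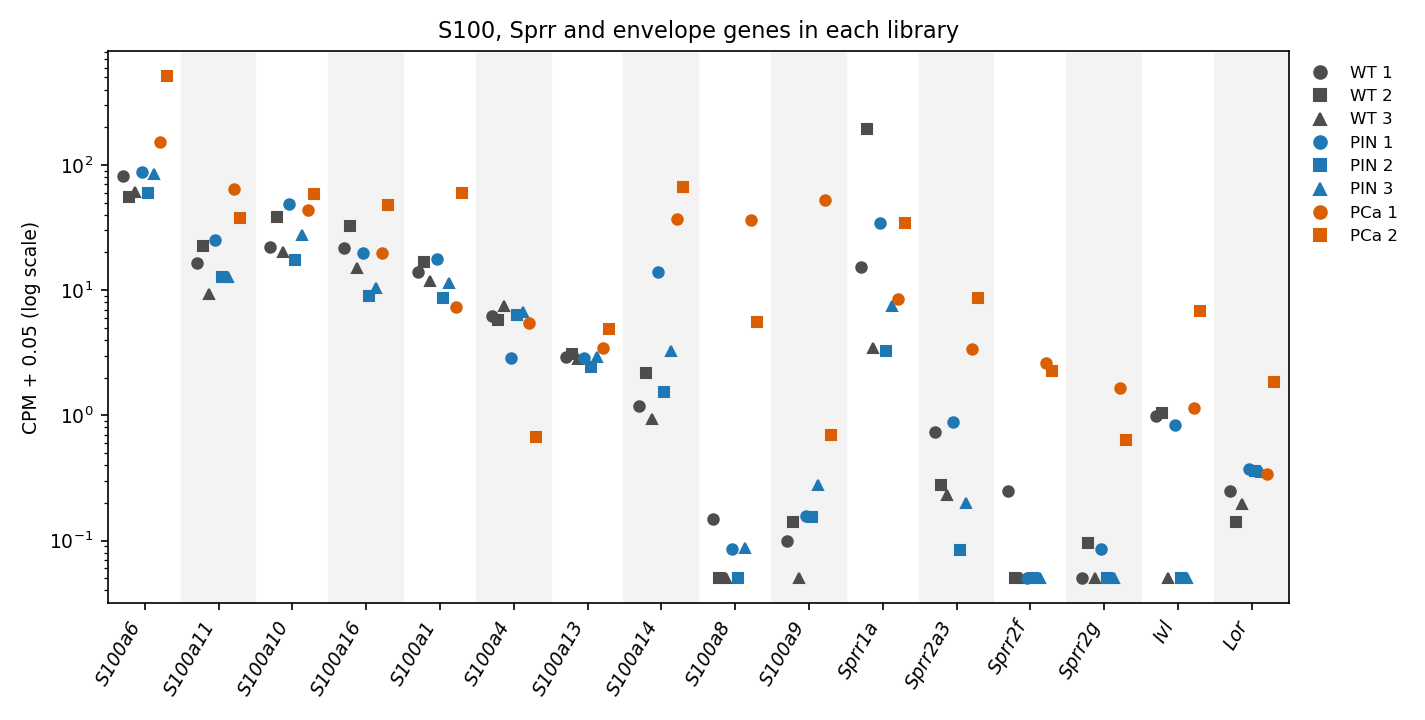
CPM of 16 members in each library on a log axis, with 0.05 added so that 0 can be drawn; symbols mark replicates and colors mark groups. S100a14, S100a8, Sprr2a3 and Sprr2f were higher in both PCa libraries than in every other library, whereas S100a9, S100a1, S100a4 and Ivl differed widely between the PCa libraries.

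The largest difference was that of S100a8, one of the calprotectin subunits (chr3:90472993-90473956, plus strand, 3 exons, mm9). S100a8 had 2, 0 and 0 counts in the WT libraries, 1, 0 and 1 in PIN, and 1133 and 161 in PCa 1 and PCa 2, or 36.5 and 5.52 CPM. Both tumors lay far above every other library and differed from each other by a wide margin. PCa 1 stood 1269-fold above the pooled WT libraries, with an exact 95% interval of 351 to 10492 that covers counting error only, and PCa 2 stood 192-fold above them, with an interval of 52.3 to 1600. All WT counts were in WT 1, and against WT 2 and WT 3 alone, taking 3 counts over both as the floor, the tumors were at least 600.2-fold and at least 90.9-fold higher. S100a8 rose by 9.26 ± 1.36 (SE) on the log2 scale in PCa against WT (adjusted p = 0.0108) and by 9.51 ± 1.36 against PIN (adjusted p = 0.0147), in edgeR's quasi-likelihood test (Benjamini-Hochberg). These fitted values depend on the prior count used for near-zero groups. The adjusted p against WT was 0.0351 without WT 1, but without either PCa library the gene no longer passed the filter and was not tested. With only the WT and PCa libraries in the model, S100a8 was not called against WT (adjusted p = 0.0611). Against PIN, leaving out PIN 1, PIN 2 or PIN 3 ended the call (adjusted p = 0.0637, 0.0600 and 0.0769).

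S100a9, the partner subunit (chr3:90496554-90499643, minus strand), had 1, 2 and 0 counts in WT, 3, 3 and 6 in PIN, and 1631 and 19 in PCa 1 and PCa 2. Because only PCa 1 exceeded 1 CPM, at 52.5 CPM against 0.651 CPM in PCa 2, the gene was left out by the filter. Without a filter on low counts it was called in PCa against WT, with a log2 fold change of 9.03 ± 1.69 (SE) and adjusted p = 0.0214 (background: 5.01% of 21366 genes called), and against PIN with 7.42 ± 1.51 and adjusted p = 0.0370 (background: 3.12%). PCa 2 was 15.1-fold above the pooled WT libraries (exact 95% interval 4.45 to 79.8) and 4.53-fold above the pooled PIN libraries (2.09 to 10.2). The subunits did not stay in proportion. S100a8 made up 41.0% of the counts of the pair in PCa 1 (exact binomial 95% interval 39.2 to 42.9%) and 89.4% in PCa 2 (84.0 to 93.5%). Per length, the ratio of S100a8 to S100a9 in TPM, a level corrected for exon length, was 0.925 in PCa 1 and 11.3 in PCa 2.

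The reference promoters of this pair are printed because both genes were high in PCa 1 and unequal in PCa 2. Both run from 250 bases before to 50 bases after the RefSeq transcription start in GRCm38.p6, at chr3:90668821-90669120 on the plus strand for S100a8 and chr3:90695672-90695971 on the minus strand for S100a9. Capitals mark TATAAA on the strand shown or its reverse complement, a motif chosen after the sequences were seen, which occurs in 13.6% of 32851 RefSeq promoters of the same length. Its first base lay at -30 in S100a8 but at position 1, the RefSeq start itself, in S100a9.
S100a8: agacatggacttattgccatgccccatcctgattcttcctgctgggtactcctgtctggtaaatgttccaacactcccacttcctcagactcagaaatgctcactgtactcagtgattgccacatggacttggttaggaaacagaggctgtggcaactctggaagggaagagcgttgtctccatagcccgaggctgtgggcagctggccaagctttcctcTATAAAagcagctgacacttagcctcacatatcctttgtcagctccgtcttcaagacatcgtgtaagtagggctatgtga
S100a9: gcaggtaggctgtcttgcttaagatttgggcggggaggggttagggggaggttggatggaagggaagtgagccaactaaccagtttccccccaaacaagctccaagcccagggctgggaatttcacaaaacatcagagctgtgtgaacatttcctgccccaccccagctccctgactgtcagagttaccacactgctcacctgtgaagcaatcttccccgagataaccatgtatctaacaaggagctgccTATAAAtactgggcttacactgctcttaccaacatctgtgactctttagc
Neither window matched the AP-1, ETS and KLF motifs searched in the Sprr promoters.

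Markers of the leukocytes that carry calprotectin were high in PCa 1 but not in PCa 2. Over 25 measured neutrophil and monocyte markers, the summed level was 88.5 to 199.8 CPM in WT, 114 to 222 CPM in PIN, 2856 CPM in PCa 1 and 57.1 CPM in PCa 2, and 20 of the 25 exceeded every WT library in PCa 1 against 1 of 25 in PCa 2. Ptprc, the pan-leukocyte gene, reached 45.5 CPM in PCa 1 and 5.01 CPM in PCa 2 against 5.17 to 12.0 CPM in WT. Itgam was at 26.3 and 4.63 CPM, and Itgb2 at 26.1 and 2.13 CPM. The neutrophil genes were uneven. Csf3r, Cxcr2 and Il1b were at 19.5, 6.73 and 28.7 CPM in PCa 1, against at most 1.41, 0.317 and 0.842 CPM elsewhere. Mpo, Retnlg and Mmp8 were at 0.579, 1.45 and 0.772 CPM in PCa 1, each above every other library. The surface gene Ly6g and the granule genes Elane, Ngp and Camp had at most 0.0644 CPM in any library. The sum in PCa 1 rested mainly on Ltf (1382 CPM) and Lcn2 (883 CPM), secreted defense proteins that epithelia also make. Csf3r, Cxcr2, Il1b, Mpo, Retnlg, Mmp8, Ngp, Camp, Ltf and Lcn2 were chosen for naming after their values were seen. None of the 14 tested markers was called in any comparison. In PCa 2, S100a8 stood above every WT and PIN library while the leukocyte sum was below all of them. The part of the leukocyte signal in the S100a8 and S100a9 values was not tested, and in bulk tissue fewer cells of a type and less RNA per cell cannot be told apart.

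**Figure D2:**
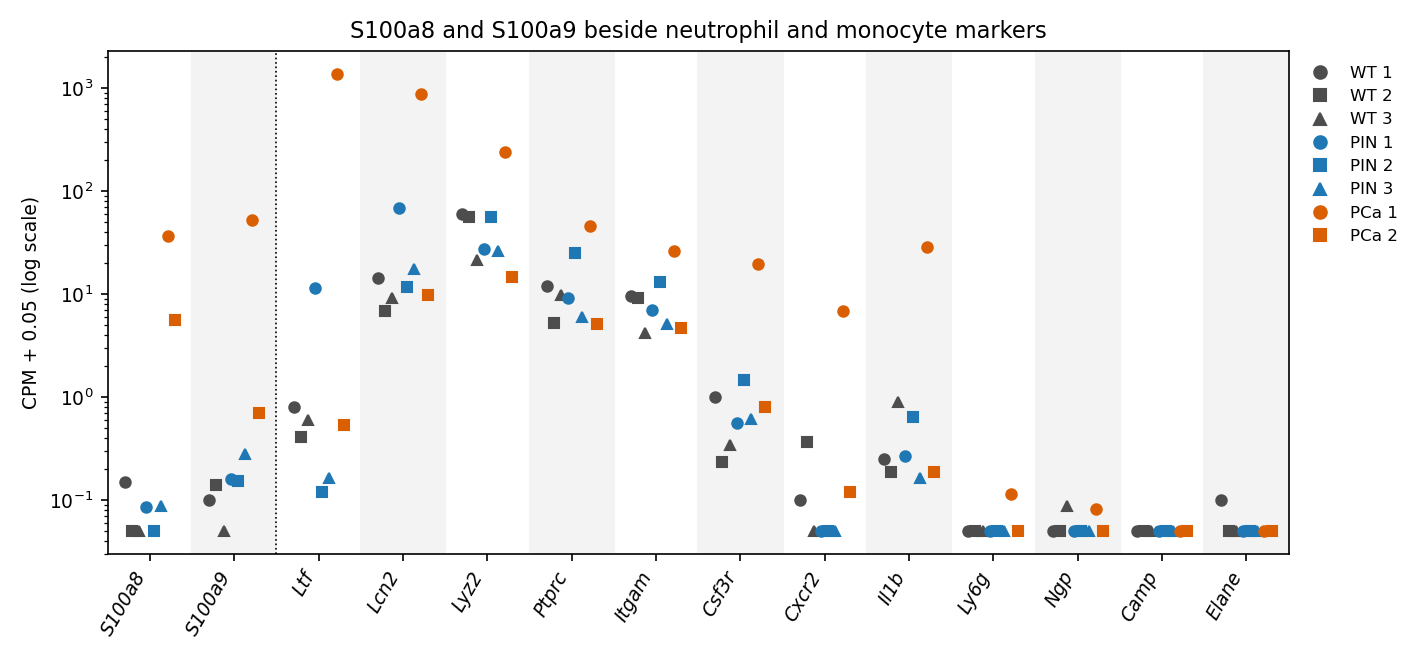
CPM of S100a8 and S100a9 (left of the dotted line) and of 12 neutrophil and monocyte markers in each library on a log axis, with 0.05 added. Most markers were high in PCa 1 and not in PCa 2, where S100a8 was at 5.52 CPM, and Ly6g, Ngp, Camp and Elane lay at or near 0 throughout.

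S100a14, an S100 protein of epithelia (chr3:90330778-90332755, plus strand), was low in WT, at 1.14, 2.13 and 0.878 CPM. It was at 13.8, 1.48 and 3.24 CPM in PIN and at 36.7 and 66.8 CPM in PCa. Both tumors were above every other library, and among the PIN tissues PIN 1 was high while PIN 2 lay within the WT range. S100a14 rose by 5.23 ± 0.95 (SE) on the log2 scale in PCa against WT, with adjusted p = 0.0210 in edgeR's quasi-likelihood test (Benjamini-Hochberg). The call was kept without either PCa library (adjusted p = 0.0117 and 0.0334) and was lost without WT 1 or WT 3 (adjusted p = 0.0657 and 0.0812). The call against WT was also lost with the replicate number as a block in the model (adjusted p = 0.0651). Against PIN the difference of 3.06 ± 0.87 missed the threshold (adjusted p = 0.0839), whereas DESeq2 called it (adjusted p = 0.00422). Without PIN 1 that difference was 4.47 and was called, with adjusted p = 0.0421.

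S100a6 (calcyclin), which binds annexins and other partners (chr3:90416816-90418336, plus strand), was the most abundant S100 gene per length. Its mean was 279 ± 83.8 TPM in WT and 365 ± 64.7 TPM in PIN (SD, n = 3), and 803 and 2840 TPM in PCa 1 and PCa 2. In CPM the gene was at 81.2, 55.2 and 61.0 in WT, 87.3, 60.1 and 84.8 in PIN, and 151 and 515 in PCa. The WT and PIN ranges overlapped and both tumors lay above them. S100a6 rose by 2.34 ± 0.47 (SE) on the log2 scale in PCa against WT (adjusted p = 0.0272) and by 2.11 ± 0.47 against PIN (adjusted p = 0.0454), in edgeR's quasi-likelihood test (Benjamini-Hochberg). The size rested in part on PCa 2, since without it the log2 differences were 1.22 (adjusted p = 0.0476) and 0.99 (adjusted p = 0.0985). The call against WT was also lost without WT 1, WT 2 or WT 3, and without PIN 1 or PIN 3 (adjusted p = 0.0536 to 0.0948). The call against PIN was lost on leaving out any WT or PIN library (adjusted p = 0.0543 to 0.156). Both calls were also lost with the replicate number as a block and with only the 2 groups compared in the model. With limma-trend the call was kept against WT and lost against PIN. S100a6 made up 36.0 to 52.9% of the summed S100 TPM in WT, 44.8 to 56.9% in PIN, 33.1% in PCa 1 and 68.9% in PCa 2.

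S100a11 and S100a10, both of which form complexes with annexins, lie apart from the other S100 genes at the far end of the cluster. S100a11 was at 16.4, 22.3 and 9.33 CPM in WT, 25.0, 12.7 and 12.6 CPM in PIN, and 63.9 and 37.5 CPM in PCa, both tumors being above every other library. Its log2 difference of 1.66 ± 0.47 (SE) in PCa against WT missed the threshold in edgeR's quasi-likelihood test (Benjamini-Hochberg) (adjusted p = 0.0672), whereas DESeq2 called it (adjusted p = 0.00898). Of its 50-base sequence windows, 76.6% were unique among transcripts, the rest being shared with Gm7665. S100a10, the partner of annexin A2, was at 22.1, 38.6 and 19.9 CPM in WT, 49.0, 17.5 and 27.7 CPM in PIN, and 44.0 and 58.8 CPM in PCa. PIN 1 lay between the tumors, and the difference in PCa against WT was 0.94 ± 0.46 (adjusted p = 0.235). Anxa2 itself was at 74.2, 111 and 49.7 CPM in WT, 158, 43.1 and 57.7 CPM in PIN, and 290 and 220 CPM in PCa (log2 difference against WT 1.70 ± 0.57, adjusted p = 0.102), a gene chosen for naming because it binds S100a10.

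The remaining S100 genes showed no called difference. S100a1, best known from muscle, was at 13.9, 16.9 and 11.8 CPM in WT, 17.6, 8.68 and 11.3 CPM in PIN, and 7.24 and 59.5 CPM in PCa. PCa 1 was the lowest and PCa 2 the highest of all libraries, and the difference against WT changed from 1.23 ± 0.73 (SE) to -0.96 on the log2 scale without PCa 2. S100a13, which starts 42 bases away on the opposite strand, held 2.78 to 3.04 CPM in WT, 2.38 to 2.86 CPM in PIN, and 3.41 and 4.83 CPM in PCa. Both tumors were above all other libraries for S100a13, yet the difference against WT was small (0.51 ± 0.38, adjusted p = 0.427). S100a16 was at 14.9 to 32.6 CPM in WT, 8.92 to 19.9 CPM in PIN, and 19.7 and 48.2 CPM in PCa, with overlapping groups. S100a4, a gene of fibroblasts and motile cells, was at 6.18, 5.75 and 7.36 CPM in WT, 2.81, 6.34 and 6.59 CPM in PIN, 5.37 CPM in PCa 1 and 0.617 CPM in PCa 2. Both tumors were below every WT library for S100a4, the only tested member with that order (background: 19.6% of all tested genes), and the log2 difference was -1.10 ± 0.82 (SE, adjusted p = 0.433). The size rested on PCa 2: the difference was -0.24 without it (adjusted p = 0.812), and -3.36 and called without PCa 1 (adjusted p = 0.0183), a fit that assumes the lone tumor to vary like the other groups. Of 9 markers of fibroblasts and other mesenchymal cells none was called in PCa against WT, and their summed level was 703 to 1437 CPM in WT, 1047 to 1355 CPM in PIN, 918 CPM in PCa 1 and 358 CPM in PCa 2. All 6 smooth muscle markers were called lower in PCa against WT (background: 8.54% of all tested genes called, 4.18% called lower). Their sum was 2021 to 4863 CPM in WT, 3197 to 5859 CPM in PIN, 42.5 CPM in PCa 1 and 19.7 CPM in PCa 2. The part of these cells in the S100a4 values was not tested.

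Of the untested S100 genes, S100b reached at most 0.692 CPM. S100a3 had 9 and 8 counts in the PCa libraries, against 4 counts over all WT and 4 over all PIN libraries. S100g had 10 counts in PCa 2 and at most 2 elsewhere, and S100a5 had 1 count in WT 1. S100b overlaps Dip2a over 1731 bases and S100g overlaps Ctps2 over 2608 bases, on the opposite strand. Since the strand setting of the counting is not given in the sources used here, reads within the shared bases cannot be told apart.

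**Figure D3:**
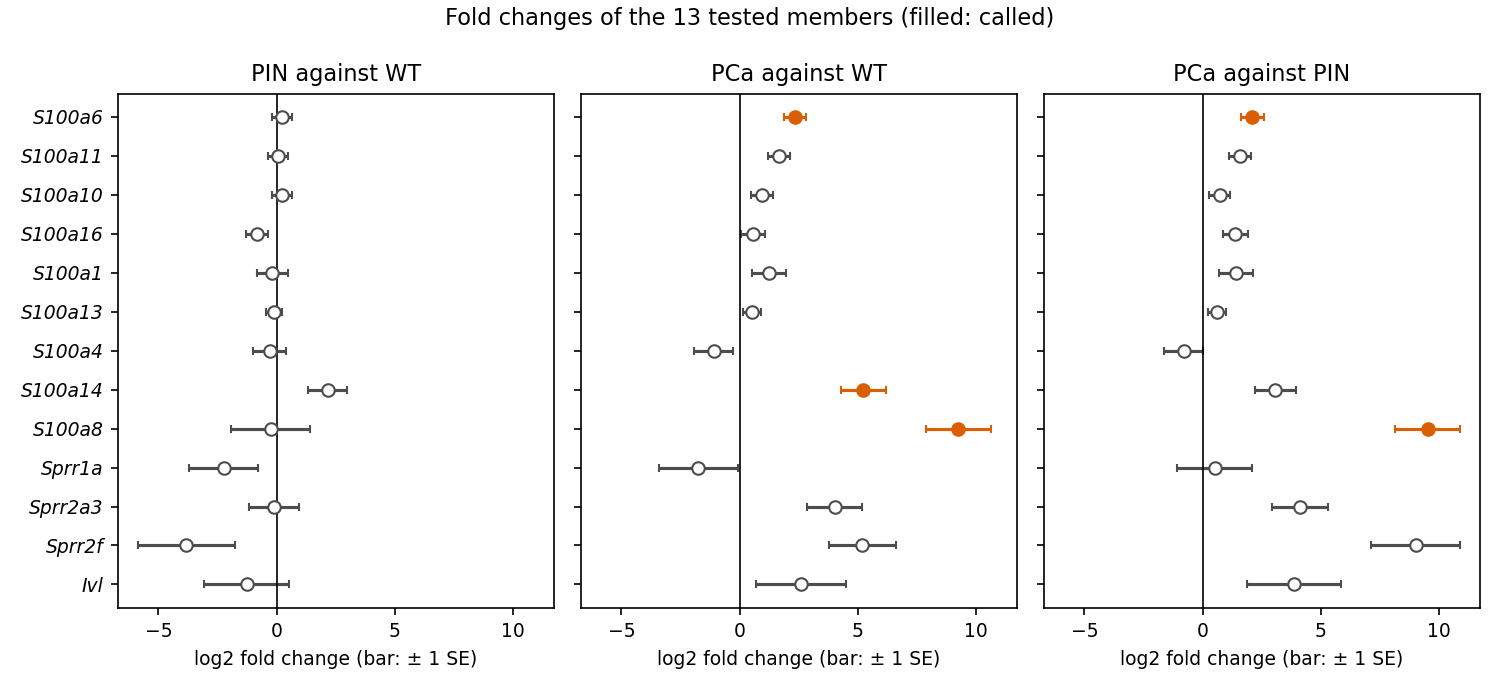
Log2 fold changes with 1 SE of the 13 tested members in 3 comparisons from edgeR's quasi-likelihood fit; filled orange points were called. S100a6 and S100a8 were called against both WT and PIN, S100a14 against WT, and no member in PIN against WT.

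Among the Sprr genes, the Sprr2 group was nearly silent in WT and PIN and present in both tumors. Over the 12 Sprr2 genes the summed level was 0.989, 0.634 and 0.183 CPM in WT, 0.936, 0.0344 and 0.151 CPM in PIN, and 9.07 and 13.03 CPM in PCa, and the number of Sprr2 genes with at least 1 count was 1 to 4 in WT and PIN libraries and 9 and 7 in PCa. Sprr2f had 4, 0 and 0 counts in WT, none in PIN, and 80 and 65 in PCa. It was thus 44.8-fold and 38.8-fold above the pooled WT libraries (exact 95% intervals 16.8 to 168 and 14.4 to 147), and at least 71.5-fold and 61.9-fold above PIN, taking 3 counts over the group as the floor. All 4 WT counts were in WT 1, and against WT 2 and WT 3 alone the tumors were at least 42.4-fold and at least 36.7-fold higher. In edgeR's quasi-likelihood test (Benjamini-Hochberg) Sprr2f missed the threshold against WT (adjusted p = 0.0836) and against PIN (adjusted p = 0.0537). It was called in both comparisons by limma-trend (adjusted p = 0.0237 and 0.0207) and by edgeR's newer quasi-likelihood method (adjusted p = 0.0316 and 0.0221), and by DESeq2 against PIN (adjusted p = 0.00524) but not against WT (adjusted p = 0.0782). Sprr2a3 was at 0.692, 0.227 and 0.183 CPM in WT, 0.828, 0.0344 and 0.151 CPM in PIN, and 3.35 and 8.57 CPM in PCa. Both tumors exceeded every other library, with a log2 difference of 4.02 ± 1.17 (SE) against WT that missed the threshold (adjusted p = 0.0737), and was called by DESeq2 (adjusted p = 0.00612) and by the newer method (adjusted p = 0.0430) but not by limma-trend (adjusted p = 0.0578).

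Sprr2g, below the filter, had 1 count in WT, 1 in PIN, and 50 and 17 in PCa. Without a filter it was called against WT (log2 difference 5.79 ± 1.38 SE, adjusted p = 0.0478) but not against PIN (adjusted p = 0.0521) in edgeR's quasi-likelihood test (Benjamini-Hochberg). With edgeR's filterByExpr as the filter it was called in both comparisons (background: 7.66% of 15586 genes called against WT and 4.87% against PIN). Sprr2g passed that filter through the PCa libraries alone and had to be high there. Sprr2a2 had 5 and 36 counts in PCa and none elsewhere, Sprr2d had 15 and Sprr2e 7 counts in PCa 1 alone, and Sprr2h had 7 counts in WT 2, 12 in PCa 1 and 7 in PCa 2. Sprr2a1 had 2 counts in PIN 1, 8 in PCa 1 and 1 in PCa 2. Sprr2b had 3 counts over WT, none in PIN, and 1 and 4 in PCa. The first 3 Sprr2 genes cannot be separated well: only 2.86% of the 50-base windows of Sprr2a1 and of Sprr2a2, and 49.2% of those of Sprr2a3, were unique among transcripts, and their models overlap on the same strand. The windows of Sprr2f and Sprr2g were 99.3% and 100% unique.

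**Figure D4:**
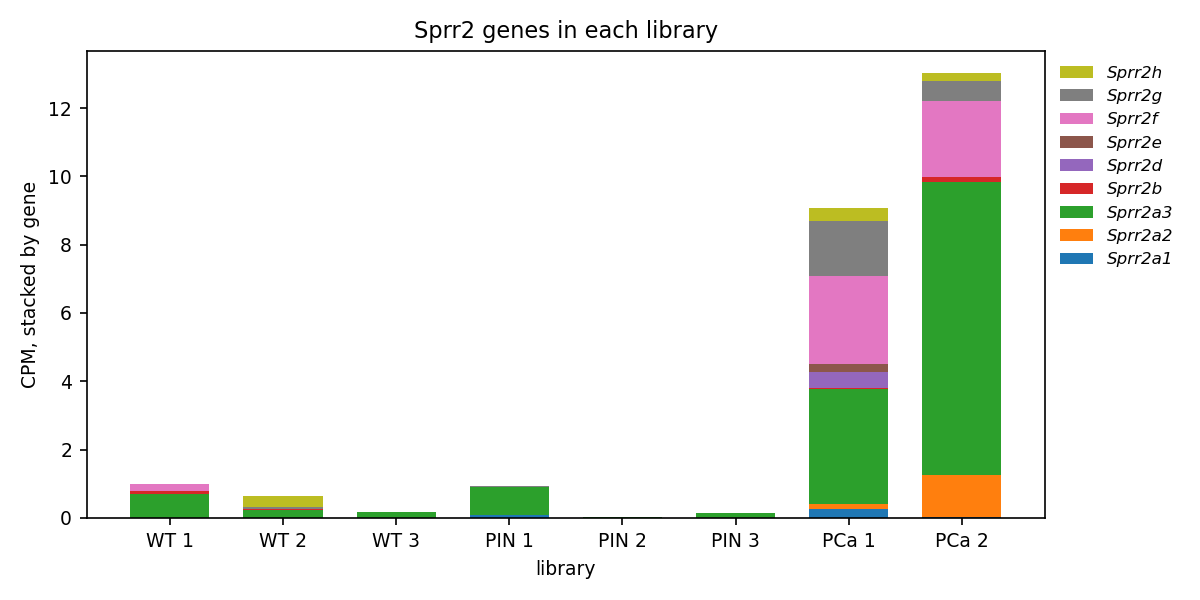
Summed CPM of the Sprr2 genes in each library, stacked by gene, from 0. The sums were at most 0.989 CPM in WT and PIN libraries and 9.07 and 13.03 CPM in PCa 1 and PCa 2, with Sprr2a3 and Sprr2f as the main parts.

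Sprr1a, a cornified envelope precursor that is also induced by injury in several tissues, followed another pattern. It was at 15.2, 195 and 3.40 CPM in WT, 34.6, 3.20 and 7.42 CPM in PIN, and 8.46 and 34.2 CPM in PCa. WT 2 alone, with 4313 counts, was far above all other libraries, and the groups overlapped. The log2 difference in PCa against WT was -1.74 ± 1.68 (SE, adjusted p = 0.548) and became 1.20 (adjusted p = 0.577) without WT 2. Sprr1b had a single count, in PCa 2.

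The promoter windows of the Sprr and envelope genes were searched on both strands for TGANTCA. This pattern covers the AP-1 core sites TGAGTCA and TGACTCA but also admits other middle bases. RefSeq (GRCm38.p6) held windows for 29 of the 33 symbols, 33 windows in all, and none for S100a14, S100a10, Sprr2g and Sprr2j-ps. The motif was found in 9 of 14 Sprr windows and in all 3 windows of Lor, Ivl and Flg, but in 2 of 16 S100 windows, against 7.81% of 32851 RefSeq promoters. The windows of Sprr2a1, Sprr2a2, Sprr2a3, Sprr3 and Sprr4 held no match. Sprr2a3 had the highest level of the Sprr2 genes in PCa 1 and PCa 2, at 3.35 and 8.57 CPM. The matches of Sprr1b, Flg and S100a16 read TGAATCA, outside these core sites. Many Sprr2 windows share most of their bases and are not independent. The letters CCGGAAG (ETS factors) were found in no member, and GGGTGTG (KLF factors) in Ivl and S100b, against 8.86% and 7.95% of all promoters. The 60 bases around the first match are printed for members that were seen in PCa (Sprr2f, Sprr2d, Sprr1a, Ivl, S100a11) and for 1 without a count (Sprr2i), with the motif in capitals. They lie at chr3:92364964-92365023 (Sprr2f, plus strand), chr3:92338921-92338980 (Sprr2d, plus), chr3:92407772-92407831 (Sprr2i, plus), chr3:92485994-92486053 (Sprr1a, minus), chr3:92573818-92573877 (Ivl, minus) and chr3:93520334-93520393 (S100a11, plus).
Sprr2f: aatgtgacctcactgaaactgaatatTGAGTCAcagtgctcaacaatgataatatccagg
Sprr2d: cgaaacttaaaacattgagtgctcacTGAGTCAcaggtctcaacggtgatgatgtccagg
Sprr2i: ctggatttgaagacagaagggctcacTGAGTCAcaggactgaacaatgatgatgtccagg
Sprr1a: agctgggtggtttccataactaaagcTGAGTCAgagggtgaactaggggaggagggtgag
Ivl: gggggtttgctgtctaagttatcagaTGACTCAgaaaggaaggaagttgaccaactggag
S100a11: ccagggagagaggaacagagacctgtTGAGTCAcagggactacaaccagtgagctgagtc
The first base of the motif was at -197 in Sprr2f and at -193 in Sprr2d and Sprr2i, counted from the RefSeq start, and the window of Sprr2i, with 0 counts in every library, holds the same 7 letters as that of Sprr2f. A match is a description of the letters, and no binding was measured here.

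Of the envelope genes, Ivl was at 0.939, 0.997 and 0 CPM in WT, 0.792, 0 and 0 CPM in PIN, and 1.09 and 6.72 CPM in PCa. Both tumors lay above all other libraries, PCa 1 only just, and the log2 difference against WT was 2.60 ± 1.89 (SE, adjusted p = 0.418). Lor, below the filter, had 52 counts in PCa 2 (1.78 CPM) and at most 9 counts in any other library, PCa 1 included. No read was counted for Flg, whose 5 models share many windows with each other. Of 42 further envelope genes found in the table, the late cornified envelope genes among them, only 10 passed the filter, and 3 of these rose in PCa against WT and none fell (background: 8.54% of all tested genes called, 4.35% called higher). Tgm5 and Asprv1 passed through the PCa libraries alone and had to be high there. Of the other 8, 1 rose, Tgm1 (background: 8.19% of the genes that pass in WT and PIN called), and the median log2 difference was 1.13 beside -0.016 over all genes that pass in WT and PIN. The crosslinking enzymes Tgm5 and Tgm1 rose by 3.33 ± 0.83 (SE, adjusted p = 0.0478) and 2.59 ± 0.42 (adjusted p = 0.0149), and the skin protease Asprv1 by 3.32 ± 0.83 (adjusted p = 0.0485), in edgeR's quasi-likelihood test (Benjamini-Hochberg). Tgm1 was at 1.28 to 2.22 CPM in WT, 1.51 to 2.45 CPM in PIN, and 9.72 and 11.9 CPM in PCa. Tgm3, chosen after its values were seen, was at 55.8 CPM in PCa 2 and at most 0.172 CPM in every other library. Among 14 tested keratins and adhesion genes of stratified epithelium, Krt6a and Pkp1 rose in PCa against WT and none fell. Krt6a and Dsg3 passed through the PCa libraries alone, and of the other 12 only Pkp1 rose, a share near the background of 8.19% called. Among 22 tested regulators of the epidermal differentiation complex, only Ehf was called (background: 8.54%), and it fell by 2.09 ± 0.49 (SE, adjusted p = 0.0417). Of the 22 differences 16 were positive, with a median log2 difference of 0.54 beside 0.013 over all tested genes. Fosb and Grhl3 passed through the PCa libraries alone and had to be high there. Over the other 20 the median was 0.39 beside -0.016 over all genes that pass in WT and PIN. Among 23 tested S100 receptors and partners, Ptgs2 rose by 3.64 ± 0.47 (SE, adjusted p = 0.00816) and Anxa11 fell by 2.58 ± 0.47 (adjusted p = 0.0205), in the same test, beside the background of 8.54% called.

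Cell type markers other than those above were also counted in PCa against WT (background: 8.54% of all tested genes called, 4.35% called higher and 4.18% lower). Of 12 luminal and secretory prostate genes, 1 rose (Fkbp5) and 2 fell (Pbsn and Tgm4). None of 8 basal markers was called. Krt5 and Krt14 stood at 4.70 and 0.309 CPM in PCa 2 and at 117 and 74.3 CPM in PCa 1, against at least 28.1 and 12.4 CPM in the other libraries. The basal marker Ngfr was at 34.5 CPM in PCa 2, above every other library. Of 8 urothelial markers, Upk2 and Krt7 rose and none fell, with 3 of the 8 differences positive. The median log2 difference was -1.41 beside 0.013 over all tested genes. Upk3a passed through the PCa libraries alone, and over the other 7 the median was -1.96 beside -0.016 over all genes that pass in WT and PIN. No seminal vesicle marker of 7 tested was called. Of 12 Schwann cell and adipocyte markers 2 fell, with 1 of the 12 differences positive and a median log2 difference of -1.11. Of 6 endothelial markers 1 fell, whereas 5 of the 6 differences were positive, with a median log2 difference of 0.91. The part of these cells in the members' values was not tested.

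Along chromosome 3, 35 of the 37 members lie within 3053.61 kb (chr3:90314956-93368565, mm9), with S100b on chromosome 10 and S100g on chromosome X. From one end to the other come a block of 10 S100 genes over 184.7 kb, Lor, a block of 16 Sprr genes over 284.7 kb, Ivl, the Flg models, and S100a11 and S100a10. The members did not move as 1 block. In the first S100 block, S100a14, S100a6 and S100a8 were called in PCa against WT, whereas S100a4, S100a16, S100a13 and S100a1 between or beside them were not. In the Sprr block, counts ran from Sprr2a1 to Sprr2h and came again at Sprr1a, with 1 count at Sprr1b, while Sprr2i, Sprr2j-ps, Sprr2k, Sprr3 and Sprr4 had none in any library.

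**Figure D5:**
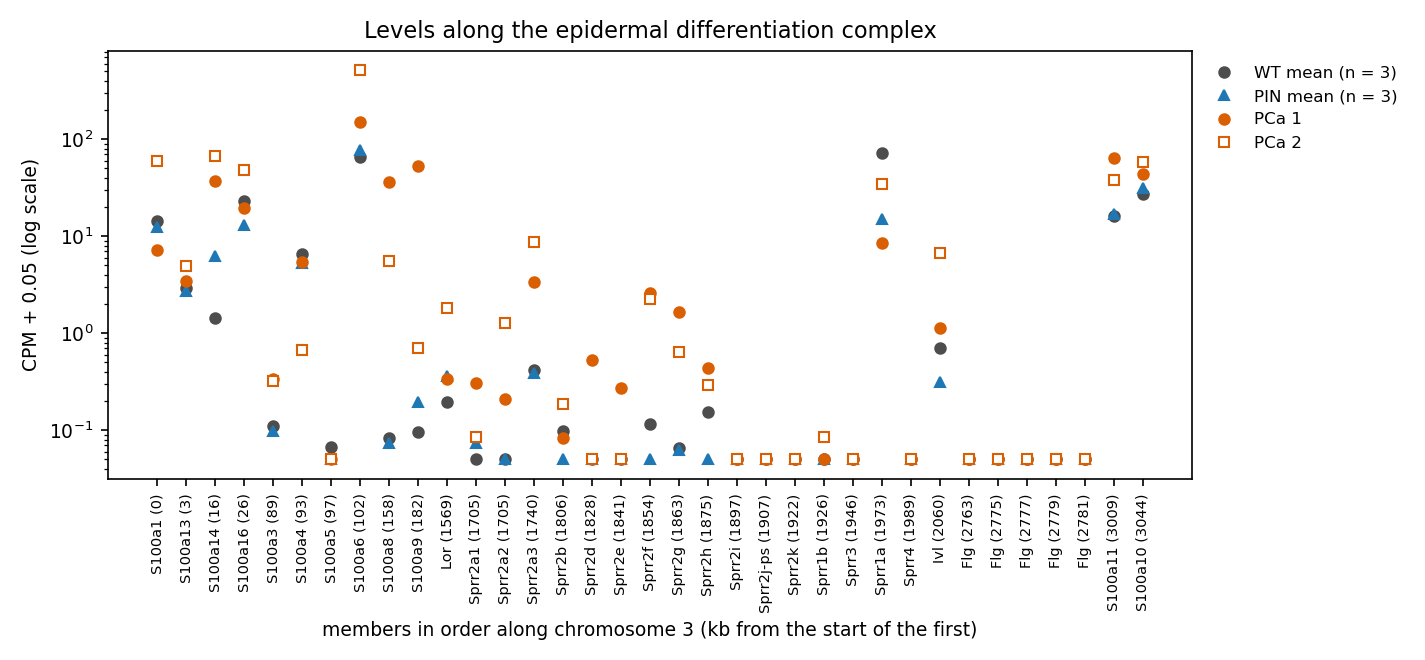
CPM with 0.05 added, on a log axis, of the 35 members on chromosome 3 in map order; the numbers in parentheses give the distance in kb from the start of the first member. Points are the WT and PIN means (n = 3 each) and the single PCa libraries, and high levels alternate with members at 0 within the Sprr block.

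In PIN against WT, no member was called, as was no gene of the whole table (background: 0%) in edgeR's quasi-likelihood test (Benjamini-Hochberg). At an unadjusted p under 0.05 there were 1 member and 492 genes in all, and DESeq2 called 0 members and 39 genes. That member was S100a14, with a log2 difference of 2.16 ± 0.82 (SE) and adjusted p = 1. None of the 13 tested members had its 3 PIN libraries all above or all below the WT libraries, an order found in 6.48% and 6.38% of all tested genes. Among the untested members, S100a9 and Lor had all PIN libraries above the WT libraries, at no more than 0.226 and 0.324 CPM. The 95% interval of the log2 difference ran from -0.90 to 0.68 for S100a13, which leaves out a 2-fold change, but from -1.72 to 1.36 for S100a1.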

How the data were processed

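RNA from 3 WT, 3 PIN and 2 PCa tissues was sequenced after removal of ribosomal RNA. The authors trimmed reads with cutadapt 1.9.1, aligned them to mm9 with HISAT2 2.1.0 and counted them per gene with HTSeq 0.6.1, and the deposited values are raw counts. The deposited table's exon length, another kind of value, was used for TPM. The annotation release and strand setting are not given in the sources used here. The counts were tested with edgeR 4.0.16 (R 4.3.3) in 1 quasi-likelihood model of the 8 libraries, with 5 residual degrees of freedom. Genes had to exceed 1 CPM in 2 or more libraries, TMM factors scaled the libraries, and the Benjamini-Hochberg adjustment ran over all tested genes. A gene was called when its adjusted p was under 0.05 and its log2 difference above 1 in size. DESeq2 1.42.0 and limma 3.58.1 were alternatives, beside other filters and normalization, a replicate block and leaving out each library. The fit was also run on simulated data, and the outcome is not given here. Intervals of counts are exact and cover counting error only. Members of context lists were named if called, up to 6 a list, or else as defining markers. The members and lists were chosen with earlier results of these data known. Protein sequences were not analysed here.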

Additional observations from a re-analysis of the deposited data

How the results depend on the processing

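With 2 PCa tumors that differ from each other, the spread between them limits every comparison with PCa, and genes under about 3 counts limit what can be seen of the Sprr2 and envelope genes. In PIN against WT the number of called members was 0 under every alternative. In PCa against WT it was 3, and became 5 with DESeq2, with no filter on low counts, with edgeR's filterByExpr and with the newer quasi-likelihood method, 4 with limma-trend, 1 with only the 2 groups compared in the model, and 1 to 4 when a library was left out. In PCa against PIN it was 2 (background: 5.72% of all tested genes called). It became 6 with DESeq2 (14.1%), and 4 with filterByExpr (4.87%, Sprr2g among them) and with the newer quasi-likelihood method (7.40%). With limma-trend it was 3 (7.13%), namely S100a8, Sprr2a3 and Sprr2f, with S100a6 at adjusted p = 0.0564. With no filter it was also 3 (3.12%), namely S100a6, S100a8 and S100a9. It was 1 with only the 2 groups compared (2.81%), and 0 or 1 when a WT or PIN library was left out (0.557 to 7.81%). With only the 2 groups compared, S100a14 was the member called against WT and S100a8 the member called against PIN. Without PCa 1, 9 members were tested and the called ones included S100a1 (higher) and S100a4 (lower). The causes were not tested, apart from the members that the filters admit or remove.

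With the replicate number as a block, 1 member, S100a8, was called in PCa against WT (background: 2.94%) and 1, S100a8, in PCa against PIN (background: 1.08%). Sprr1a turned to -1.34 in PCa against PIN. Same-numbered libraries come from different animals, and the correlations of their deviations from the group means ran from -0.0389 to 0.265, so the numbers do not pair the samples.

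Some log2 differences changed sign when 1 library was left out. In PIN against WT the ranges over all such fits were -0.26 (without PIN 1) to 0.58 for S100a10, -0.35 (without PIN 1, and -0.21 without WT 3) to 0.38 for S100a11, -0.52 to 0.025 (without PIN 2) for S100a1, -1.95 to 0.71 (without WT 1, and 0.43 and 0.24 without PIN 2 and PIN 3) for Sprr2a3, -3.76 to 0.70 (without WT 2) for Sprr1a and -0.87 to 2.66 (without WT 1, and 0.27 without PIN 2) for S100a8. In PCa against WT they were -0.96 (without PCa 2) to 2.08 for S100a1, -0.21 (without PCa 2) to 1.08 for S100a16 and -3.05 to 1.20 (without WT 2) for Sprr1a. In PCa against PIN they were -3.06 to 0.058 (without PCa 2) for S100a4, -0.77 (without PCa 2) to 2.26 for S100a1 and -0.81 (without PCa 2) to 2.02 for Sprr1a. None of the values of opposite sign was called. Over the log2 differences of single members under all alternatives, 536 values kept their direction and side of the threshold, 24 lost the call, 19 gained it and 17 changed sign. The numbers of called members given above are not part of this tally.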
